A study of Mus musculus with 77 samples.

Results

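Control cells of mouse pancreatic duct organoids were compared between 8 days and 2 days after induction, the days at which Ngn3-expressing cells of the same study were profiled. Organoids are cultures grown in 3 dimensions, here from adult ducts of C57BL/6 mice, and the study used a doxycycline-driven lentivirus to express GFP alone or GFP together with the endocrine transcription factor Neurogenin 3 (Ngn3). The 2-day control was sorted GFP-positive cells that carried the GFP vector without Ngn3 (GFP only, 3 replicates, passage 2). The 8-day control was cells labelled no-color, from organoids that received WT Ngn3 (3 replicates) or 6S-A Ngn3 (3 replicates), a form of Ngn3 in which serines that can be phosphorylated are replaced by alanine. The samples were taken by these labels and made up 9 of the 21 biological replicates and 30 of the 77 libraries. Each library came from a pool of 50 cells. Libraries of a replicate were summed, so that a GFP-only replicate rested on 6 libraries (300 cells) and a no-color replicate numbered 1, 2 or 3 on 3, 2 or 1 libraries (150, 100 or 50 cells). Both no-color replicates numbered 3 were from passage 5 and the others from passage 2. No GFP-only cells at 8 days and no no-color cells at 2 days were analysed here, so that day, sort, vector and the presence of Ngn3-expressing neighbours cannot be told apart. Whether the no-color cells had taken up a vector is not given in the sources used here.

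Duct cells line the channels that carry enzymes and bicarbonate out of the pancreas, and are marked by the transcription factor Sox9, the keratin Krt19 and secreted osteopontin (Spp1). Epithelial cells answer inflammatory signals with at least a pair of programmes: chemokines and cytokines, many of them driven by the transcription factor NF-kB, and complement and acute-phase proteins, best known from liver, many of them driven by C/EBP factors and HNF1. Duct organoids grow under Wnt and growth factor stimulation. Notch ligands such as Jag1 act between neighbouring cells, and Notch signalling restrains endocrine differentiation.

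Reads on genes numbered 20619914 to 26627347 per GFP-only replicate and 2397470 to 17919627 per no-color replicate, and 22815 to 23400 and 15592 to 19932 genes had reads. No-color WT replicate 3, a single library, stood apart with the fewest reads, 17.9% of reads from mitochondrial genes (4.22 to 8.16% in the other 5 no-color replicates) and 36.0% of reads not aligned. No-color WT and 6S-A replicates of the same number deviated together from their group means (correlation across genes 0.548, 0.30 and 0.254 for numbers 1, 2 and 3), and the labels do not say whether they were separate cultures. P-values therefore measure the spread between these samples. Of the 25 ductal markers, 23 averaged at least 10 counts per 1000000 reads (CPM) in a control group. Neurog3, the mouse gene for Ngn3, was at 0.04 to 0.07 CPM in GFP-only and at 0 to 0.93 CPM in no-color replicates (adjusted p = 0.404, edgeR).

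The 8-day no-color cells differed from the 2-day GFP-only cells in 48 of 21066 genes tested (0.228%) at an adjusted p under 0.05 (edgeR quasi-likelihood test, Benjamini-Hochberg adjustment). Of these genes 21 (0.0997%) were higher and 27 (0.128%) were lower in no-color cells. Secreted acute-phase, complement and lectin genes such as Chil1, Fga, Apcs and C3 were among the higher genes, as was the retinol carrier gene Rbp4. The growth factor gene Csf1, the cell death gene Bbc3, the receptor gene Axl, the ligand genes Jag1 and Wnt7b and the actin cross-linker gene Actn1 were among the lower ones. The median log2 difference, always given as no-color minus GFP only, was 2.48 over the higher and -1.88 over the lower genes, and -0.13 over all genes tested. All 48 genes had the same sign in no-color WT and in no-color 6S-A cells when each was set against GFP only. They were chosen on the mean of both groups against the same GFP-only samples, so this was largely fixed by the choice. Each no-color group was also set against the 3 GFP-only replicates within the same fit of all control groups. No-color WT gave 0 genes (2634 at an unadjusted p under 0.05, 471 by DESeq2) and no-color 6S-A gave 34 (0.161%). Scaling and spread came from all control groups, so each count also depends on the other no-color group. Between no-color 6S-A and WT cells 0 genes were called (edgeR, 2783 at an unadjusted p under 0.05, 314 by DESeq2). With the replicate number as a block 0 were called, 1 when only the no-color groups entered that fit, and 1 in a fit of all 7 groups of the study.

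The number of genes depended on which replicates entered. It was 0, 13 and 0 without GFP-only replicate 1, 2 or 3, 5, 300 and 117 without no-color WT replicate 1, 2 or 3, and 6, 82 and 5 without no-color 6S-A replicate 1, 2 or 3. At an unadjusted p under 0.05 there were 2777 genes (13.2%) with all 9 replicates, 1498 without GFP-only replicate 1 and 1436 without GFP-only replicate 3. DESeq2 called 601 genes, among them all 48. With the no-color replicates of the same number summed, 3 against 3, there were 203 genes, 44 of the 48 among them. The direction of the 48 genes did not change in any of the 1102 refits of a gene over 23 alternative settings, and they stayed past the threshold in 609 of these. The genes were chosen in these samples and did not overlap between the groups, so a change of direction was unlikely from the start. Csf1 stayed past it in 20 of 23 settings, Chil1 in 19, Tmeff2 in 18 and Rbp4 in 17, while Jag1 and Plau stayed in 9.

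**Figure D1:**
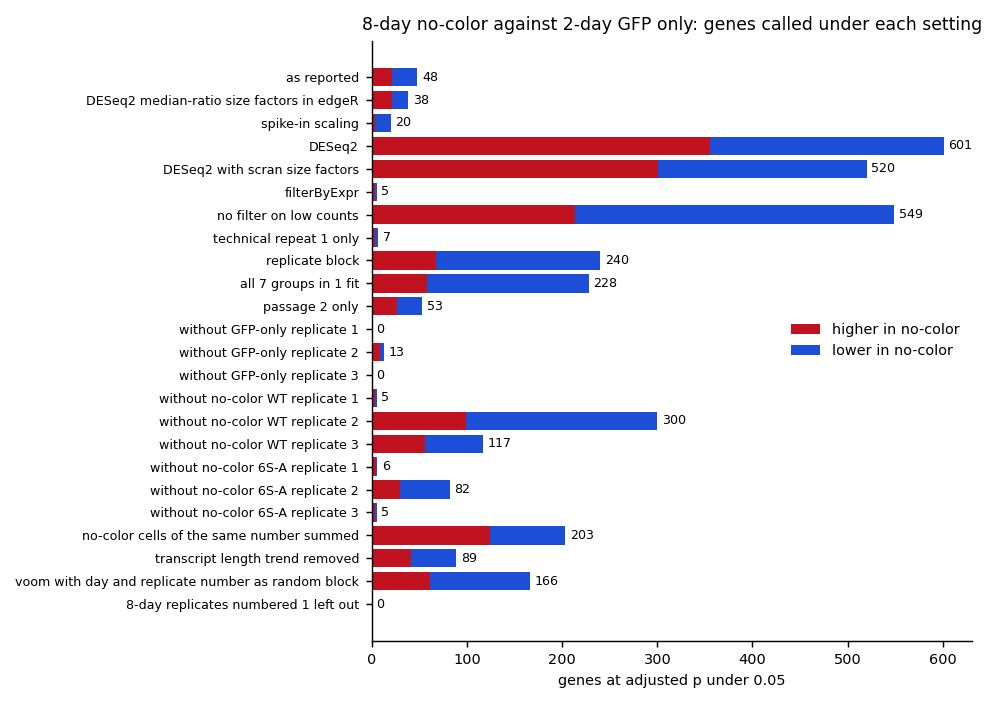
Number of genes at an adjusted p under 0.05 between 8-day no-color and 2-day GFP-only cells (horizontal axis) under each setting (rows), with genes higher in no-color cells in red and genes lower in blue. The count was 48 as reported, 0 when GFP-only replicate 1, GFP-only replicate 3 or both 8-day replicates numbered 1 were left out, and 601 with DESeq2.

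The sequences before the start sites of Fga, C3 and Chil1 are shown for 3 of the secreted genes that rose. That of Csf1 is shown for the gene with the smallest adjusted p. Each is the 250 bases upstream of the RefSeq start nearest to the annotated one (GRCm38.p6), 5' to 3' on the strand of the gene: Fga at chr3:83025903-83026152 (plus strand), C3 at chr17:57228137-57228386 (minus strand), Chil1 at chr1:134181906-134182155 (plus strand) and Csf1 at chr3:107760470-107760719 (minus strand). Capitals mark letters that match, on either strand, TTNCNNAA (a C/EBP motif), GGGA and CC with any 4 bases between them (an NF-kB motif) or GTTAAT (part of an HNF1 site), where N is any base and matches may overlap.
Fga: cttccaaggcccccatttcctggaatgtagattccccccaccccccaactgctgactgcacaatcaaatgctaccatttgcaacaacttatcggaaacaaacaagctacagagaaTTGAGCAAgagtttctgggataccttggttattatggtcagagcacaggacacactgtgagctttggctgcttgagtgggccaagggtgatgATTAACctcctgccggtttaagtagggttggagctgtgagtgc
C3: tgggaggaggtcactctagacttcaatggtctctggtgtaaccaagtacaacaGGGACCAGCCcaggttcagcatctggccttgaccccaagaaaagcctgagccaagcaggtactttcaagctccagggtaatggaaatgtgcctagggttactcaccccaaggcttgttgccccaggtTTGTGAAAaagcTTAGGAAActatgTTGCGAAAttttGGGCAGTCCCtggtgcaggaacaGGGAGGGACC
Chil1: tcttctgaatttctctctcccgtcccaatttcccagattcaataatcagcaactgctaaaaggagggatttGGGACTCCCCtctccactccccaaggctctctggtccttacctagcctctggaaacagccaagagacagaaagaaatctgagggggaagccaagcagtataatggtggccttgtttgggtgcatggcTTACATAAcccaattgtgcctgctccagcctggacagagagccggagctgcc
Csf1: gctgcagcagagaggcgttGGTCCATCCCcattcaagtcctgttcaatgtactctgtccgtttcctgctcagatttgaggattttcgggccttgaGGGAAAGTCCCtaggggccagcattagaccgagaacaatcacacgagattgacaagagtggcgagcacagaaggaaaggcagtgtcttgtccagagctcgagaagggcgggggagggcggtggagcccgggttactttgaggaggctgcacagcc
Such a window was found for 35 of the 48 genes, 15 higher and 20 lower. The C/EBP letters were present for 10 of the 15 higher genes (66.7%) and 5 of the 20 lower genes (25.0%), against 37.0% of all 27025 promoters and 27.2% of the 7644 promoters of genes that averaged 10 CPM or more in a control group. The NF-kB letters were present for 4 higher (26.7%) and 11 lower genes (55.0%), against 17.4 and 22.6%. The partial HNF1 site was present for 4 higher and 0 lower genes, against 6.53 and 3.55%. The letters TTCNNNGAA (STAT, 7.12% of all promoters) were found for 2 higher and 1 lower genes, TGANTCA (AP-1, 6.83%) for 0 and 1, and GGAATG (TEAD, 12.6%) for 3 and 3. The 3 higher genes printed are all among the 10 with C/EBP letters. The window of Apcs, also secreted and higher, held none of the letters marked above. The motifs were chosen with the genes known, and a match describes the letters of the window, not a bound site.

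Chil1 encodes a secreted chitinase-like protein of inflamed epithelia and lies at chr1:134182176-134190181 (GRCm38). It was at 14.6, 34.4 and 15.1 CPM in the GFP-only replicates, and at 97.9, 242 and 345 CPM at the lowest, median and highest in the 6 no-color replicates. The groups did not overlap, which held for all 21 higher genes and for 626 of all genes tested in this direction (2.97%). The log2 difference was 3.44 ± 0.44 (SE), a 10.8-fold higher level (adjusted p = 0.013, edgeR). Rbp4, the carrier of retinol in serum, was at 14.1, 17.8 and 10.8 CPM in GFP-only cells and at 55.5, 69.2 and 93.0 CPM (lowest, median, highest) in no-color cells. Its groups did not overlap either (log2 difference 2.35 ± 0.31, adjusted p = 0.013, edgeR). Tmeff2, a transmembrane protein with follistatin-like domains, was at 7.14, 19.7 and 9.79 CPM in GFP-only cells and at 38.5, 134 and 256 CPM in no-color cells (3.35 ± 0.45, adjusted p = 0.013, edgeR). Its 3 no-color 6S-A replicates (153 to 256 CPM) all lay above the 3 no-color WT replicates (38.5 to 115 CPM). Between these groups no gene passed by edgeR, Tmeff2 included, and the share of all genes separated in this way was not counted.

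A component and an inhibitor of complement were higher in no-color cells. C3, on which the activating pathways converge, was at 590, 708 and 726 CPM in GFP-only cells and at 1170, 1770 and 3229 CPM (lowest, median, highest) in no-color cells. The groups did not overlap and the log2 difference was 1.49 ± 0.28 (adjusted p = 0.046, edgeR). C4bp, an inhibitor of the classical pathway, was at 5.75, 25.5 and 12.3 CPM in GFP-only cells and at 67.2, 80.7 and 227 CPM in no-color cells (2.96 ± 0.55, adjusted p = 0.0497, edgeR). All no-color values of C4bp lay above all GFP-only values.

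Fga, Apcs, Sftpd, Serpina7 and Lbp, all genes of secreted proteins, rose as well. Fga, the alpha chain of fibrinogen, was close to the detection limit in GFP-only cells (0.03, 0.53 and 0.35 CPM, 24 reads in all) and at 3.23, 9.73 and 49.7 CPM (lowest, median, highest) in no-color cells (1318 reads). The fitted log2 difference was 5.44 ± 0.96 (adjusted p = 0.037, edgeR). Apcs, serum amyloid P, was at 0.48, 1.28 and 0.69 CPM in GFP-only cells and at 2.99, 11.3 and 17.7 CPM in no-color cells (3.73 ± 0.61, adjusted p = 0.035, edgeR). Sftpd, a collectin that binds microbial sugars, was abundant, at 97.7, 191 and 140 CPM in GFP-only cells and at 408, 648 and 1168 CPM in no-color cells (2.38 ± 0.39, adjusted p = 0.035, edgeR). Serpina7, which carries thyroid hormone, was at 4.83, 11.6 and 5.24 CPM in GFP-only cells and at 18.5, 39.1 and 138 CPM in no-color cells (2.81 ± 0.48, adjusted p = 0.035, edgeR). Lbp, which binds bacterial lipopolysaccharide and was named after its values were seen, was at 179, 222 and 193 CPM in GFP-only cells and at 322, 782 and 866 CPM in no-color cells (1.74 ± 0.31, adjusted p = 0.037, edgeR).

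A list of 60 acute-phase and complement genes was drawn up after these values had been seen, so its counts only describe it. Of its 40 tested genes 10 rose and 0 fell, 34 lay above 0 (42.4% of all genes did) and the median log2 difference was 1.92. Their summed level was 9130 to 11200 CPM in GFP-only and 15200 to 39100 CPM in no-color replicates, most of it from Lcn2. The acute-phase genes Saa3 and Lcn2, also named after their values were seen, did not pass the test. Saa3 was at 3.20, 3.74 and 5.20 CPM against 7.01, 33.6 and 50.3 CPM (lowest, median, highest) without overlap (2.91 ± 0.57, adjusted p = 0.053, edgeR). Lcn2, an iron-trapping protein and one of the most abundant transcripts, was at 5814, 7353 and 5185 CPM against 9323 to 31440 CPM (1.51 ± 0.35, adjusted p = 0.097, edgeR). C1q genes, which macrophages make, were at 0 in all 9 replicates.

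The other higher genes by size were of mixed function: Nlrp10, an inflammasome-related protein, Vnn3, a pantetheinase relative, Ramp3, a partner of calcitonin-type receptors, Ppp2r2b, a phosphatase subunit, Ptprt, a receptor phosphatase, and Aspa, which cleaves N-acetylaspartate. Their log2 differences ran from 2.07 (Aspa) to 2.84 (Nlrp10). Nlrp10 was at 5.95, 6.95 and 2.95 CPM in GFP-only cells and at 18.8, 38.0 and 57.6 CPM (lowest, median, highest) in no-color cells. Aspa was at 40.1, 56.4 and 64.0 CPM in GFP-only cells and at 132, 193 and 507 CPM in no-color cells.

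**Figure D2:**
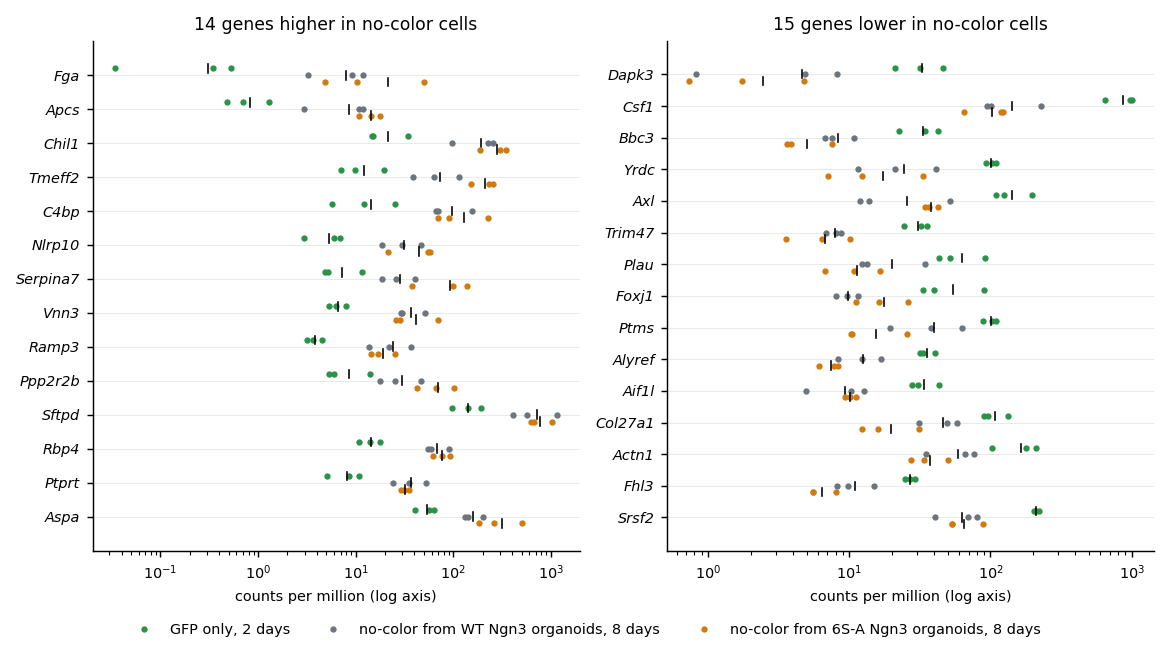
Level in CPM (horizontal log axis) of 14 higher and 15 lower genes among those with the largest differences (rows) in the 9 control replicates. Points are replicates, short black bars the means of 3, and the GFP-only points (green) do not overlap the no-color points of the same gene; Csf1, for example, lay between 643 and 1010 CPM in GFP-only and between 65.0 and 229 CPM in no-color cells.

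Csf1, the growth factor that sustains macrophages, had the smallest adjusted p of all genes tested. It lies on the minus strand at chr3:107741048-107760469 (GRCm38). It was at 1010, 643 and 966 CPM in GFP-only replicates, and at 65.0, 110 and 229 CPM at the lowest, median and highest in no-color replicates. The groups did not overlap, as for all 27 lower genes and 1347 of all genes in this direction (6.39%). The log2 difference was -2.86 ± 0.32 (adjusted p = 0.00624, edgeR), and it lay between -3.13 and -2.45 over the alternative settings.

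Csf1 belongs to a list of NF-kB targets and chemokines, of which 24 genes were tested. In this list 2 genes fell (Csf1 and Tnfaip3), 1 rose (C3), 20 lay below 0 (57.6% of all genes did) and the median was -0.65. Tnfaip3, which shuts NF-kB signalling off, was at 252, 215 and 296 CPM in GFP-only cells and at 39.8, 84.8 and 116 CPM (lowest, median, highest) in no-color cells (-1.56 ± 0.29, adjusted p = 0.0497, edgeR). The summed level of the list, which includes the abundant Lcn2, was 15600 to 16000 CPM in GFP-only and 18600 to 37400 CPM in no-color replicates. Ccl2, a monocyte attractant, and Vcam1, an adhesion molecule, were named after their values were seen and did not pass. Ccl2 was at 718, 501 and 735 CPM against 44.5 to 339 CPM (-1.65 ± 0.45, adjusted p = 0.160, edgeR). Vcam1 was at 446, 303 and 515 CPM against 101 to 270 CPM (-1.26 ± 0.29, adjusted p = 0.097, edgeR). Neither overlapped between the groups. Of 34 interferon-stimulated genes tested 0 passed, 26 lay below 0 (57.6% of all genes did) and the median was -0.51. Among them 5 had an unadjusted p under 0.05, all lower (9.01% of all genes tested were lower at such a p). Only 10 of the 34 averaged 10 CPM or more in a control group.

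Bbc3, which encodes the cell death protein Puma and is a p53 target, was at 42.6, 22.4 and 34.5 CPM in GFP-only cells and at 3.63, 7.11 and 10.7 CPM (lowest, median, highest) in no-color cells. The groups did not overlap (-2.36 ± 0.36, adjusted p = 0.035, edgeR). It was the 1 gene of 21 tested p53 targets that passed, while 16 lay below 0 and the median was -0.45. Cdkn1a, the cell cycle inhibitor p21 and a p53 target too, was at 536, 466 and 631 CPM against 369 to 1862 CPM. Its highest value was that of no-color WT replicate 3, and it did not pass (0.28 ± 0.43, adjusted p = 0.834, edgeR; -0.25 without that replicate).

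Jag1, Wnt7b and Axl, which act in signalling between cells, fell. The Notch ligand gene Jag1 was at 172, 150 and 190 CPM in GFP-only cells and at 63.3, 74.0 and 85.9 CPM (lowest, median, highest) in no-color cells (-1.20 ± 0.22, adjusted p = 0.046, edgeR). It was the 1 of 21 tested Notch pathway genes that passed, with 15 below 0 and a median of -0.45. Hes1, a Notch effector, was at 348, 371 and 507 CPM in GFP-only cells and between 29.4 and 264 CPM in 5 no-color replicates, all below. It was at 1041 CPM in no-color WT replicate 3, and did not pass (adjusted p = 0.695, edgeR). The Wnt ligand gene Wnt7b was at 428, 247 and 275 CPM in GFP-only cells and at 96.0, 128 and 165 CPM in no-color cells (-1.28 ± 0.24, adjusted p = 0.0497, edgeR). It was the 1 of 20 tested Wnt pathway genes that passed, with 16 below 0 and a median of -0.58. Axl, a receptor tyrosine kinase and known YAP target, was at 195, 110 and 124 CPM in GFP-only cells and at 11.8, 35.7 and 51.6 CPM in no-color cells (-2.18 ± 0.38, adjusted p = 0.037, edgeR). It was the 1 of 20 tested YAP/TEAD targets that passed, with 17 below 0 and a median of -0.32. For Jag1, Wnt7b and Axl every no-color replicate lay below every GFP-only replicate.

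Actn1, Aif1l, Fhl3 and Plau fell. Actn1, which cross-links actin filaments, was at 209, 102 and 179 CPM in GFP-only cells and at 27.5, 42.4 and 75.9 CPM (lowest, median, highest) in no-color cells, without overlap (-1.81 ± 0.31, adjusted p = 0.035, edgeR). Aif1l, an actin-binding protein, Fhl3, a LIM domain protein, and Plau, the urokinase protease, fell by 1.81, 1.71 and 2.04 on the log2 scale. In a list of 36 actin and adhesion genes made after values had been seen, 4 fell, 0 rose, 33 lay below 0 and the median was -0.54. Myh9, a non-muscle myosin named after its values were seen, was at 296, 261 and 403 CPM against 79.4 to 213 CPM and did not pass (-1.15 ± 0.29, adjusted p = 0.129, edgeR). It passed in the fit of all 7 groups (-1.14 ± 0.26, adjusted p = 0.038, edgeR). Of 23 tested genes of TGF-beta signalling, epithelial-mesenchymal transition and basement membrane, 0 passed, 17 lay below 0 and the median was -0.62. Among them 8 had an unadjusted p under 0.05, all lower (9.01% of all genes tested were lower at such a p).

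The other lower genes by size were Dapk3, a death-associated kinase, Yrdc, a tRNA modification enzyme, Trim47, a ubiquitin ligase family member, Foxj1, the regulator of motile cilia, Ptms, a small acidic protein, Alyref, an mRNA export adaptor, Col27a1, a fibrillar collagen, and Srsf2, a splicing factor. Srsf2 was at 203, 209 and 220 CPM in GFP-only cells, a narrow spread, and at 40.3, 61.2 and 88.6 CPM (lowest, median, highest) in no-color cells (-1.71 ± 0.27, adjusted p = 0.035, edgeR). Dapk3 was at 45.9, 31.9 and 20.9 CPM in GFP-only cells and at 0.74, 3.27 and 8.14 CPM in no-color cells (-3.32 ± 0.60, adjusted p = 0.042, edgeR). Alyref and Srsf2 were the 2 of 24 genes that fell in a list of splicing and export genes made after values had been seen, whose median was -0.10. The exons of 11 of the 48 genes, Srsf2, Dapk3, Yrdc, Trim47, Actn1, Aif1l, Wnt7b, Ramp3, Ppp2r2b, Glul and Ugt1a7c, overlap exons of other annotated genes, so their reads are less certain. Grhl3, Gjb5, Scn3b and Gprin1 were called at under 10 CPM in both groups.

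**Figure D3:**
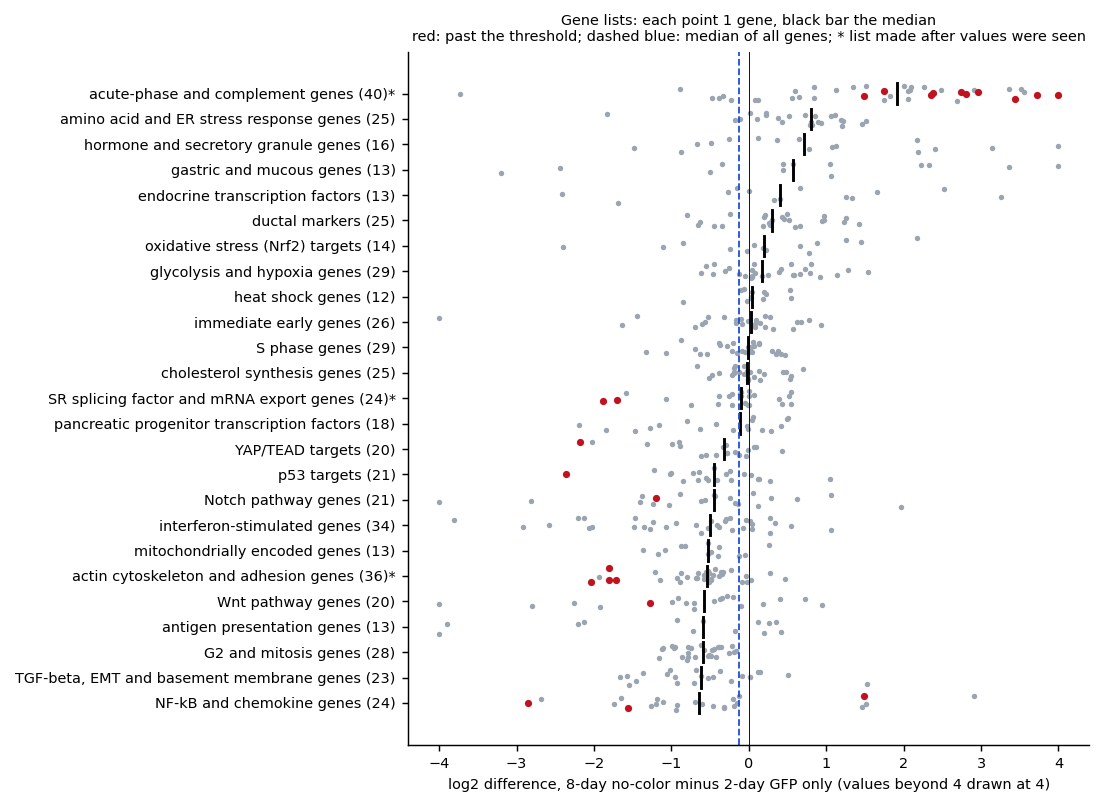
Log2 difference, 8-day no-color minus 2-day GFP only (horizontal axis), of the genes of each list with at least 12 tested genes (rows, number tested in brackets, * for lists made after values were seen). Red points passed the test, black bars are medians and the dashed line is the median of all genes, -0.13; medians ran from -0.65 (NF-kB and chemokine genes) to 1.92 (acute-phase and complement genes).

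No ductal marker passed the test. Of 25 genes 0 were called in either direction, 19 lay above 0 and the median was 0.30. At an unadjusted p under 0.05, 8 were higher and 3 lower, where 4.17 and 9.01% of all genes were. Krt19 was at 612, 544 and 623 CPM in GFP-only and at 567, 929 and 1048 CPM (lowest, median, highest) in no-color cells, with overlap (0.51 ± 0.27, adjusted p = 0.435, edgeR). Sox9 was at 389, 284 and 360 CPM against 134, 204 and 271 CPM, without overlap, and did not pass (-0.80 ± 0.27, adjusted p = 0.234, edgeR). Epcam, an epithelial adhesion gene, was at 1554 to 1668 CPM in GFP-only cells. In no-color cells it was at 303 and 514 CPM in the replicates numbered 1 and at 1622 to 1775 CPM in the other 4 (-0.34 ± 0.47, adjusted p = 0.805, edgeR). Spp1, Car2, a carbonic anhydrase, and clusterin (Clu) were named after their values were seen, with log2 differences of 1.23, 1.43 and 0.97 and adjusted p of 0.151, 0.083 and 0.171 (edgeR). Of these 3 genes Car2 and Clu did not overlap between the groups. In the fit of all 7 groups Clu passed (0.97 ± 0.24, adjusted p = 0.04965, edgeR), and Spp1 and Car2 did not.

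All 28 tested genes of G2 and mitosis lay below 0, with a median of -0.59, and 0 of them passed or had an unadjusted p under 0.05. Their mean log2 CPM was 4.69 to 4.86 in GFP-only replicates, 4.40 to 4.60 in the 4 no-color replicates of passage 2, and 2.39 and 1.03 in no-color WT and 6S-A replicates 3, of passage 5 and 1 library each. Mki67, a marker of dividing cells, was at 50.6, 66.2 and 77.5 CPM in GFP-only cells. It was at 49.6, 75.1 and 13.5 CPM in no-color WT replicates 1, 2 and 3 and at 55.7, 30.8 and 4.08 CPM in no-color 6S-A replicates 1, 2 and 3, so that the groups overlapped and the 2 lowest values were those of passage 5 (-0.78 ± 0.60, adjusted p = 0.626, edgeR). Of 29 S phase genes 14 lay above 0, with a median of -0.02.

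Genes of the amino acid and ER stress response lay mostly above 0 without a call. Of 25 genes tested, 22 lay above 0, 13 were higher at an unadjusted p under 0.05 (4.17% of all genes were), 0 passed the adjusted test and the median was 0.80. Their summed level was 3170 to 3310 CPM in GFP-only and 3700 to 7080 CPM in no-color replicates. Genes of this list named after their values were seen were Xbp1, Asns, Atf4, Hspa5 and Ddit4. Xbp1, a transcription factor of secretory cells, was at 332, 517 and 372 CPM against 469 to 1989 CPM (1.46 ± 0.30, adjusted p = 0.059, edgeR). Asns, which makes asparagine, was at 84.8, 83.6 and 83.4 CPM against 101 to 334 CPM (1.19 ± 0.33, adjusted p = 0.162, edgeR). Atf4, the regulator of the amino acid response, was at 290, 331 and 351 CPM against 436 to 708 CPM (0.80 ± 0.25, adjusted p = 0.206, edgeR). The ER chaperone gene Hspa5 had a log2 difference of 0.72 ± 0.23 (adjusted p = 0.211) and Ddit4, an inhibitor of mTOR signalling, one of -1.84 ± 0.43 (adjusted p = 0.097, edgeR). In the fit of all 7 groups Atf4 (0.80, adjusted p = 0.042) and Ddit4 (-1.82, adjusted p = 0.039, edgeR) passed, and Xbp1, Asns and Hspa5 did not.

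No gene passed the test in the lists of antigen presentation (8 of 13 below 0, median -0.59), mitochondrially encoded genes (12 of 13 below 0, -0.53), Nrf2 targets (9 of 14 above 0, 0.20), glycolysis and hypoxia (21 of 29 above 0, 0.17), cholesterol synthesis (15 of 25 below 0, -0.03), immediate early genes (13 of 26 above 0, 0.03), heat shock (8 of 12 above 0, 0.04), progenitor transcription factors (11 of 18 below 0, -0.11), gastric genes (9 of 13 above 0, 0.57), endocrine transcription factors (9 of 13 above 0, 0.41) or hormones and granule proteins (11 of 16 above 0, 0.71). Sst, the hormone gene of delta cells, named after its values were seen, was at 0.14, 0.21 and 0.13 CPM in GFP-only cells and at 1.18 to 8.18 CPM in no-color cells (4.50 ± 0.88, adjusted p = 0.053, edgeR). In such pools fewer cells of a type and less RNA per cell cannot be told apart.

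Markers of other cell types are given by their summed levels. Of 17 acinar markers 7 were at 0 in all 9 replicates, and the list summed to 7.69 to 19.8 CPM in GFP-only and 19.4 to 155 CPM in no-color cells. Mesenchymal markers summed to 7.02 to 12.6 CPM and 2.44 to 7.35 CPM, with Col3a1, Thy1 and Lum at 0, and endothelial markers to 0.953 to 1.80 CPM and 0 to 0.567 CPM. Immune markers summed to 478 to 493 CPM and 451 to 1410 CPM, mostly from Cd14, while Adgre1, Tyrobp, Cd3e and Lyz2 were at 0. The part of these markers in the differences was not tested.

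The control difference was set beside the 8-day minus 2-day change in Ngn3-expressing cells, in a fit of all 7 groups (24945 genes). Each Ngn3 replicate rested on 6 libraries at 2 days and on 1 to 3 at 8 days. Both 8-day Ngn3 replicates numbered 3 were from passage 5, the others from passage 2. A library of WT Ngn3 8-day replicate 2 missed the limit on reads and was left out. No sample was shared, but control and Ngn3-expressing samples of the same day and number deviated together from their group means (correlation across genes 0.159 to 0.481 at 2 days and 0.129 to 0.636 at 8 days), so the 2 changes are not independent. In that fit 29 genes changed over time in WT Ngn3 cells (0.116%) and 108 in 6S-A Ngn3 cells (0.433%). The 21 genes higher in the no-color controls all lay above 0 in both, with medians of 2.09 and 2.11, where 41.5 and 43.1% of all genes lay above 0. Of the 27 lower genes, 21 lay below 0 in WT and 23 in 6S-A Ngn3 cells, with medians of -0.90 and -0.79 against -1.88 in the controls. Among those past the threshold over time, in the direction of the controls, were Chil1 and Ptms in WT Ngn3 cells and 2310057J18Rik, Aspa, C3, Chil1, Fhl3 and Ptms in 6S-A Ngn3 cells. Within this joint fit the controls gave 228 genes (0.914%). WT Ngn3 cells shared 10 of them (4.39% of the control genes and 34.5% of the WT genes), all in the same direction. 6S-A Ngn3 cells shared 20 (8.77 and 18.5%), of which 19 had the same direction.

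**Figure D4:**
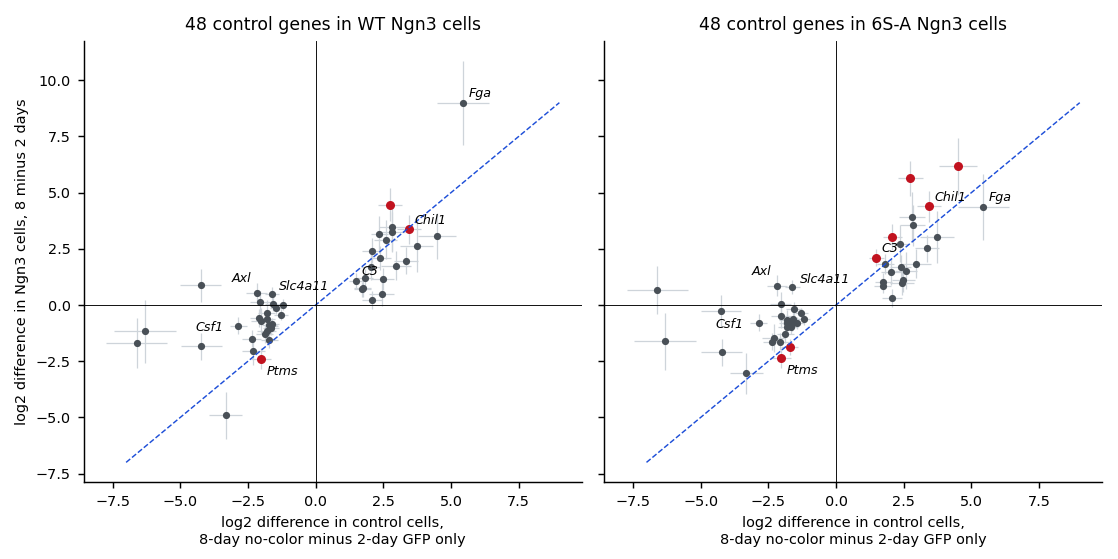
Log2 difference of the 48 genes in Ngn3-expressing cells, 8 minus 2 days (vertical axis, WT left and 6S-A right), against that in control cells (horizontal axis), with standard errors as bars, genes past the threshold over time in red and a dashed line of equal change. The 21 higher genes all lie above 0 (medians 2.09 and 2.11), and among the 27 lower genes 6 lie above 0 in WT and 4 in 6S-A Ngn3 cells, Axl, Plau and Slc4a11 in both.

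In the joint scaling Chil1 was at 1.11, 3.56 and 1.68 CPM in WT Ngn3 cells at 2 days and at 27.8, 5.76 and 30.2 CPM at 8 days (3.36 ± 0.65, adjusted p = 0.048, edgeR). In 6S-A Ngn3 cells it was at 0.50, 0.99 and 2.99 CPM and at 39.5, 28.3 and 26.7 CPM (4.39 ± 0.68, adjusted p = 0.00866, edgeR). These levels lay below those of the controls on the same scale, 15.7 to 37.3 CPM at 2 days and 103 to 364 CPM at 8 days, without overlap on either day. The share of all genes separated in this way was not counted, and the difference on a day was not tested. C3 was at 171, 247 and 194 CPM and at 1338, 952 and 344 CPM in 6S-A Ngn3 cells (2.11 ± 0.37, adjusted p = 0.010, edgeR). In WT Ngn3 cells C3 did not pass (1.08 ± 0.36, adjusted p = 0.377, edgeR). Ptms fell, from 80.6 to 100 CPM at 2 days to 11.4 to 25.3 CPM at 8 days in WT Ngn3 cells (-2.40 ± 0.47, adjusted p = 0.039, edgeR).

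Whether a gene changed differently over time in Ngn3-expressing and control cells was tested as an interaction. For WT Ngn3 cells it called 0 genes (edgeR, 1319 at an unadjusted p under 0.05, 64 by DESeq2), and for 6S-A Ngn3 cells 3 (0.012%): Slc4a11, Fads3 and Gal. Slc4a11, a membrane transporter that fell in the controls (605, 310 and 368 CPM in GFP-only, 100 to 249 CPM in no-color cells on the joint scale), was at 87.6, 112 and 79.8 CPM at 2 days and 216, 120 and 155 CPM at 8 days in 6S-A Ngn3 cells. The 2 changes differed by 2.43 ± 0.42 on the log2 scale (adjusted p = 0.045, edgeR). Fads3, of the fatty acid desaturase family, was at 65.4, 41.3 and 58.5 CPM in GFP-only and 16.0 to 34.7 CPM in no-color cells, and at 20.5, 22.9 and 32.7 CPM and then 46.8, 60.1 and 86.0 CPM in 6S-A Ngn3 cells (2.47 ± 0.39, adjusted p = 0.039, edgeR). Gal, the neuropeptide galanin, went from 260, 203 and 241 CPM to 8.52, 1.99 and 10.7 CPM in 6S-A Ngn3 cells and was at or under 2.08 CPM in all controls (difference of changes -6.57 ± 1.04, adjusted p = 0.045, edgeR). The count was 0 without GFP-only replicate 3, no-color WT replicate 1, no-color 6S-A replicate 1 or 2, or any 1 of the 6 Ngn3 replicates at 2 days. With the replicate number of each day as a block, chosen after seeing the data because these numbers paired the samples of a day, the test called 25 genes (0.1%) for WT and 37 (0.148%) for 6S-A Ngn3 cells, Slc4a11 and Fads3 (but not Gal, adjusted p = 0.0613, edgeR) among the latter. In the fit without a block the count was 1 without GFP-only replicate 1 or 6S-A Ngn3 8-day replicate 1 or 3, 20 without no-color WT replicate 2, and 5 and 8 without WT Ngn3 8-day replicates 1 and 2.

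Csf1 was at 1120, 1077 and 891 CPM at 2 days and 741, 634 and 263 CPM at 8 days in WT Ngn3 cells, and at 847, 886 and 847 CPM and then 699, 501 and 298 CPM in 6S-A Ngn3 cells. All 6 of these 8-day values lay above the 68.4 to 242 CPM of the no-color cells on the joint scale. The time change differed from that of the controls by 1.94 ± 0.48 in WT (adjusted p = 0.498) and 2.08 ± 0.48 in 6S-A Ngn3 cells (adjusted p = 0.265, edgeR), which did not pass. With the block within each day it passed in both (1.88 ± 0.32, adjusted p = 0.025, and 2.05 ± 0.32, adjusted p = 0.00816, edgeR). Axl, named here after its values were seen, was at 137, 94.0 and 82.2 CPM at 2 days and 207, 176 and 70.3 CPM at 8 days in WT Ngn3 cells, and the difference of its change from the controls did not pass without a block (2.72 ± 0.61, adjusted p = 0.300, edgeR) and passed with it (2.65 ± 0.50, adjusted p = 0.0495, edgeR). With the block 5 of the 48 genes passed for WT (Axl, Csf1, Scn3b, Slc4a11 and Tnfaip3) and 3 for 6S-A Ngn3 cells (Axl, Csf1 and Slc4a11). Without the block the difference had an unadjusted p under 0.05 for 18 of the 48 genes in WT and 18 in 6S-A Ngn3 cells, 15 of them each time among the lower genes. It opposed the control change for 18 and 17 of these, but the genes were chosen on that control change, which enters the difference.

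The log2 difference and transcript length were related. Over 9630 genes of 10 CPM or more they had a Spearman correlation with length of -0.447 (across genes of the same 9 samples, which are not independent replicates). For single replicates against the GFP-only mean the correlation was -0.183, -0.404 and 0.475 in GFP-only replicates 1, 2 and 3, -0.44, -0.072 and -0.275 in no-color WT and -0.092, -0.222 and -0.339 in no-color 6S-A replicates 1, 2 and 3. The GFP-only replicates enter the mean they are set against, so their values are not comparable with those of the no-color replicates. With these genes in 10 equal groups by length, the group with the shortest transcripts (median 874 bases) had a median difference of 0.44 and that with the longest (8364 bases) one of -0.22. Relative to the GFP-only mean, the shortest group was at 1.56 in no-color WT replicate 3 and between -0.36 and 0.49 in the other no-color replicates, and between -0.18 and 0.16 in the GFP-only replicates. In the time change of Ngn3-expressing cells the correlation with length was -0.07 (WT) and -0.12 (6S-A). These values used differences of mean log2 CPM from the joint fit, not fitted log2 differences. They are therefore not directly comparable with the value for the controls. The median transcript length was 2587 bases for the higher genes, 3196 for the lower genes and 3368 over the 9630 genes. With the trend on length removed from each replicate 89 genes passed, 46 of the 48 among them.

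**Figure D5:**
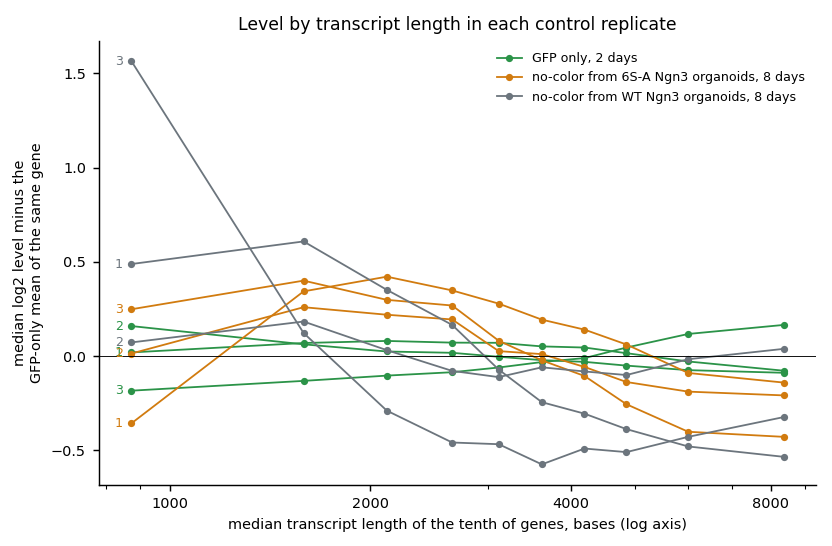
Median log2 level minus the GFP-only mean of the same genes (vertical axis) in 10 equal groups of genes by transcript length (horizontal log axis, bases), with 1 line per control replicate and its number at the left end. No-color WT replicate 3 reached 1.56 in the group of shortest transcripts, and the other no-color replicates lay between -0.36 and 0.49 there.

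The share of reads from the synthetic ERCC spike-in RNAs did not differ between the controls beyond its spread. It was 0.108 ± 0.0361% (SD, n = 3) in GFP-only and 0.123 ± 0.0728% (SD, n = 6) in no-color replicates, with the highest value, 0.264%, in no-color WT replicate 3 (two-sided exact permutation test, p = 0.976, smallest possible 0.0238). Without that replicate the difference changed sign, from 0.0152 to -0.013 percentage points. With libraries scaled to the spike-ins the median of all genes was -0.32 and 20 genes passed, 3 higher and 17 lower, 8 of them among the 48.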

How the data were processed

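RNA-seq (Smart-seq2, pools of 50 cells) counts of reads per gene were deposited by the authors, who aligned to mm10 with GSNAP and counted with HTSeq (0.5.3p3). Of control reads 22.2% were not aligned, 12.4% lay in no feature and 8.39% were ambiguous; these stayed out of library sizes. All 30 control libraries held under 30% spike-in reads, over 1000000 reads and over 10000 genes. Technical repeats were summed. Genes detected in at least 5 of the libraries were tested by edgeR (4.0.16, R 4.3.3; TMM, robust quasi-likelihood, Benjamini-Hochberg 0.05), which was tested on simulated data. Levels are TMM-scaled CPM. Positions and lengths are from GENCODE M21, promoters from RefSeq. Alternatives used DESeq2 (1.42.0), scran (1.30.0) and limma (3.58.1), other scalings and filters, and replicates left out. The settings added (length trend, random block, 8-day replicates numbered 1 left out, block within each day, and all for no-color 6S-A against WT) were chosen after seeing the data. The text names the 15 genes with the largest differences in each direction (without overlap, 10 CPM or more in the higher group, no Gm or Rik names), up to 4 called members of each of 27 lists, 7 set genes (Neurog3, Sox9, Krt19, Epcam, Mki67, Hes1, Cdkn1a), and up to 5 interaction genes per direction; genes outside this rule were chosen after their values were seen. Members and lists were chosen with earlier results of these data known, and 3 lists after the values were seen. By the correlation of deviations from group means, replicate numbers paired samples of the same day (all pairs of groups, 0.129 to 0.67) but not GFP-only with no-color samples (-0.317 to 0.099). The labels do not say what a number marks. The values of 1 gene that met the rule are not reported here.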

Additional observations from a re-analysis of the deposited data

Results flagged for a closer look

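Among 79 groups of 6 no-color values examined, 7 held a sample far from the others by Dixon's criterion, where chance gives about 5%. Gene levels are log2(CPM + 1). No-color WT replicate 3 was lowest for Spp1, at 12.95 against 14.05 to 14.69 in the other 5. The same replicate was highest in spike-in share (0.2641% against 0.0654 to 0.121%), in mitochondrial reads (17.87% against 4.217 to 8.158%) and in reads not aligned (35.96% against 18.38 to 24.25%). No-color WT replicate 1 was lowest for Aif1l, at 2.577 against 3.357 to 3.785, and the only one of 6 with Grhl3 reads, at 0.1595. No-color WT replicate 2 was lowest for Apcs, at 1.996 against 3.556 to 4.223.

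The time change in 6S-A Ngn3 cells differed from that in control cells by the interaction test for Fads3 (log2 difference of the changes 2.471), Slc4a11 (2.432) and Gal (-6.575).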

How the results depend on the processing

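The 48 genes kept their direction in all 1102 refits, which their choice in these samples made likely, and the threshold in 609. Of 432 refits that left out a replicate, 158 kept the threshold. The control comparison gave 20 genes with spike-in scaling, 601 with DESeq2, 520 with DESeq2 and scran factors, 5 of 15900 tested with filterByExpr, 549 of 28482 without a filter, 7 with technical repeat 1 only, 228 with all 7 groups in the fit, 203 with same-numbered no-color cells summed, 89 without the length trend, 166 with voom and a random block (correlation 0.218), 0 without the 8-day replicates numbered 1 (3539 at an unadjusted p under 0.05), and 0 to 300 with a replicate left out. DESeq2 median-ratio factors gave 38 (37 of the 48 among them) and passage 2 alone 53 (28 of the 48 among them). Of the 228 genes with all 7 groups in the fit, 39 were among the 48. No-color WT against GFP only (0 genes) gave 471 with DESeq2, 377 with scran factors, 702 without a filter and 58 with all groups. It gave 0 to 269 with a replicate of any control group left out. No-color 6S-A against GFP only (34) gave 20 with spike-in scaling, 551 with DESeq2, 501 with scran factors, 457 without a filter and 3 with technical repeat 1 only. It gave 152 with all groups, 0 without the 8-day replicates numbered 1, and 0 to 193 with a replicate of any control group left out. The interaction gave 64 with DESeq2 and 0 to 10 with a replicate left out for WT Ngn3 (0), and 61 with DESeq2, 0 with technical repeat 1 only and 0 to 20 with a replicate left out for 6S-A Ngn3 (3). Fitting a replicate block gave 240 (46 of the 48 among them), 58 and 161 for the control comparisons and 0 and 8 for the interactions. The numbers paired samples within a day (no-color WT and 6S-A 0.548, 0.30 and 0.254) but not GFP-only with no-color samples (-0.317 to 0.099). A block within each day, added after seeing the data, gave 25 and 37 for the interactions. No-color 6S-A against WT (0) gave 314 with DESeq2, 0 or 1 with a block, and 0 with any replicate left out. The spike-in share difference (0.0152 percentage points) was -0.0085 with technical repeat 1 only and -0.013 to 0.0336 with a replicate left out, below 0 without GFP-only replicate 1 (-0.00249) or no-color WT replicate 3 (-0.013). Cdkn1a, not past the threshold, was at -0.26 with spike-in scaling, -0.43 in passage 2, -0.01 with voom and -0.25 (without no-color WT replicate 3) to 0.45 with a replicate left out, and Epcam at 0.0858 without the 8-day replicates numbered 1. The 26 named genes outside the 48 passed the threshold in 101 of 596 refits of the control comparison. The cause of these changes was not tested. Depth limits low genes most in no-color WT replicate 3, where 3 reads are 1.25 CPM (0.113 to 0.145 in GFP-only replicates).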
